A study of Mus musculus with 4 samples.

Results

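Alkaline phosphatase and 9 further genes of tissue mineralization were followed in C2C12 cells, a mouse myoblast line of C3H origin, with and without extra C/EBPβ, the basic leucine-zipper regulator whose gene is Cebpb. The 10 genes are Alpl, Enpp1, Phospho1, Mgp, Spp1, Ibsp, Runx2, Sp7, Dlx3 and Dlx5, found by symbol and joined by Ensembl identifier among 49585 counted genes. They were chosen by their role in mineralization with their fold changes between these same groups, from earlier results of these libraries, in view, so their fold changes are given as a description and nothing is read from a test of them. Messenger RNA was sequenced in 4 libraries. In 2 of them the C2C12 cells carried an empty pLXSN retroviral vector, and in the other two a retrovirus overexpressing C/EBPβ. All 4 cultures had been selected as pools in G418 at 1200 μg/ml for 7 days and had then grown for 48 h as proliferating myoblasts, a line kept in 10% fetal bovine serum. Each group is thus a pool of 1 cell line carrying a retroviral vector, and the labels do not say whether the replicates came from separate transductions or cultures, so the spread between them may be technical.

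Mineral forms in bone and cartilage when the ratio of free phosphate to pyrophosphate rises around collagen and matrix vesicles. ENPP1 makes pyrophosphate, an inhibitor of crystal growth, from ATP outside the cell, and tissue-nonspecific alkaline phosphatase, the product of Alpl, hydrolyses it to phosphate. Runx2 and Sp7 are the transcription factors that direct osteoblast differentiation, and C2C12 cells treated with BMP2 leave the muscle path and become positive for alkaline phosphatase, which has made that enzyme a standard readout in this line.

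Library totals ran from 37566321 to 92027838 counts assigned to genes, the largest being C/EBPβ replicate 2, and 15078 genes had enough counts to be tested. Cebpb itself stood at 85.0 and 76.8 CPM (counts per 1000000, with library sizes scaled by TMM) with empty vector and at 483 and 473 CPM with C/EBPβ, vector-borne and chromosomal copies not being told apart. Of 7 myoblast markers all were detected in every library, and 5 fell and 2 rose (edgeR, adjusted p under 0.05). Of all tested genes 10.8% fell and 14.1% rose by the same measure. Myod1, Des, Cdh15, Chrna1 and Myog fell, whereas Myf5 and Pax7 rose by 0.60 and 0.94 on the log2 scale. The summed level of the 7, with Des as its largest part, went from 2692 and 2838 CPM to 1636 and 1868 CPM. The sum does not stand for each marker. In bulk RNA, fewer cells of a kind and less RNA per cell cannot be told apart.

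Of the 10 genes, 8 had enough counts to be tested. Alpl, Enpp1, Spp1 and Runx2 were higher with C/EBPβ and Mgp and Dlx3 were lower, while Phospho1 and Sp7 had no difference past an adjusted p of 0.05 (edgeR quasi-likelihood test, Benjamini-Hochberg over all tested genes). The past-threshold share of all tested genes was 24.9%, 14.1% higher and 10.8% lower. The 4 higher and 2 lower members are set beside that background and nothing is read from them. Ibsp and Dlx5 were at or near 0 counts. The median log2 fold change of the tested members was 0.47, beside 0.00055 for all tested genes.

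**Figure D1:**
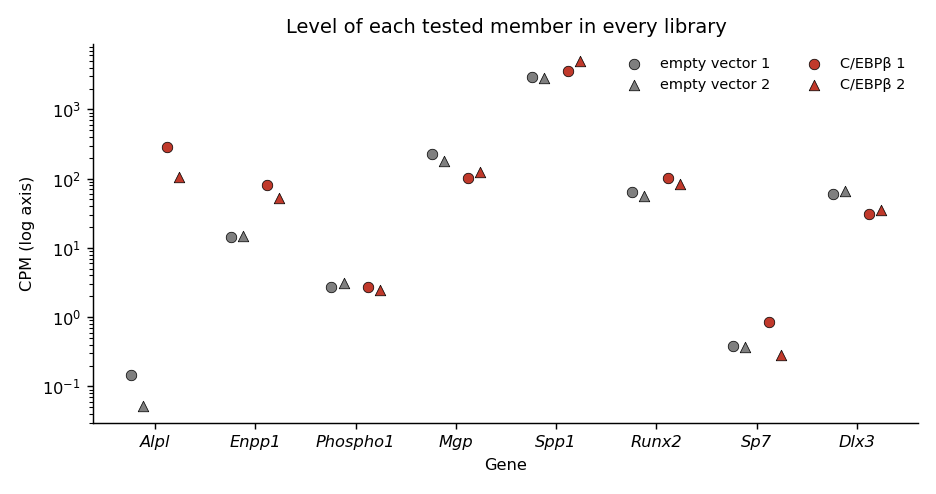
CPM on a log axis (y) of the 8 tested genes (x) in each of the 4 libraries; grey is empty vector, red C/EBPβ, circles replicate 1 and triangles replicate 2. Alpl moved from 0.146 and 0.0529 CPM to 283 and 105 CPM, whereas the lowest Spp1 value was 2857 CPM and the Sp7 groups overlapped.

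Alpl (ENSMUSG00000028766, chromosome 4, 137741733 to 137796384, minus strand, GRCm38), the phosphatase, had 6 and 2 counts in the empty vector libraries and 10815 and 9691 counts with C/EBPβ. In CPM these are 0.146 and 0.0529 against 283 and 105. Both empty vector libraries lay near the detection limit, and the higher of the C/EBPβ libraries was replicate 1. The fitted log2 fold change was 10.87 (SE 0.73). Each SE given for a fold change fitted here was worked back from the F statistic of the same test, so it adds nothing to that test. From pooled counts the ratio was 1539, with a 95% counting interval of 781 to 3566 that covers counting error only. The ratio depended on the library: leaving out empty vector replicate 1, which leaves 2 control counts, gave 2947 (816 to 24338), and leaving out empty vector replicate 2 gave 1070 (491 to 2916). With C/EBPβ replicate 1 left out the ratio was 1033 (524 to 2393), and with C/EBPβ replicate 2 left out it was 2745 (1392 to 6359). The lowest counting bound over these settings was 491.

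RefSeq (GRCm38.p6) lists a pair of Alpl starts in the table used here, and the deposited counts are per gene and do not separate them. The 250 bases before the upstream start are shown because Alpl had the largest difference among the members; they are rich in G and C (68.4%) and held no match to the 3 motifs searched, so no letter is in capitals (chr4:137796385-137796634, minus strand, 5′ to 3′).
Alpl upstream promoter: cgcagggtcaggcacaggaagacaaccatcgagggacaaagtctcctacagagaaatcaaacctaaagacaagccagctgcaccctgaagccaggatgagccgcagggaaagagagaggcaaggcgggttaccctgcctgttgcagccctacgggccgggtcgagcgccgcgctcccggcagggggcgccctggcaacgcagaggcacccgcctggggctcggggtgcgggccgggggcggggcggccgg
The motifs were TTGCNNAA for C/EBP factors, TGTGGT for RUNX factors and TAATTA for homeodomain factors, each read on both strands in windows from 250 bases before to 50 after a start. They occur in 10.8%, 16.8% and 5.29% of 32851 RefSeq windows. The table held 8 windows of 6 members (Alpl, Enpp1, Phospho1, Spp1, Ibsp and Runx2), and 3, 3 and 1 of these held the respective motif, with no overlap between matches. A match describes letters and not a bound site.

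Enpp1 (ENSMUSG00000037370, chromosome 10, 24637914 to 24712159, minus strand), the pyrophosphate-producing enzyme, stood at 14.5 and 14.6 CPM with empty vector and at 79.6 and 52.8 CPM with C/EBPβ. The empty vector libraries were nearly equal and both C/EBPβ libraries were above them, replicate 1 again the higher. Groups did not overlap for 66.2% of all tested genes, which is the background for this and for each such statement on a later member. The log2 fold change of Enpp1 was 2.18 (SE 0.18). Its promoter window is shown because it was 1 of the 3 with a C/EBP match, TTCCGCAA (the motif read on the opposite strand), 97 to 90 bases before the start, together with a RUNX match. Capitals mark both matches (chr10:24712160-24712409, minus strand, 5′ to 3′).
Enpp1 promoter: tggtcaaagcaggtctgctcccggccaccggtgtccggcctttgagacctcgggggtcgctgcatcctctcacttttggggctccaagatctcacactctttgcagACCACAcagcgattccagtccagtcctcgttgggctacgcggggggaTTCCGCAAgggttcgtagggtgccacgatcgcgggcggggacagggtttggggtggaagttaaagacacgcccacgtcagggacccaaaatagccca

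Levels of different genes were compared per exon length, as length-scaled transcript abundances that sum to 1000000 in a library (TPM). Enpp1 exceeded Alpl 39.2-fold and 109-fold in TPM in the empty vector libraries, on 6 and 2 Alpl counts. With C/EBPβ the order was the opposite, and Alpl exceeded Enpp1 9.06-fold in replicate 1 and 5.08-fold in replicate 2. Both genes were higher with C/EBPβ, Alpl by far the more. Among all genes ranked by TPM, Alpl went from places 18695 and 20388 to places 759 and 2432.

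**Figure D2:**
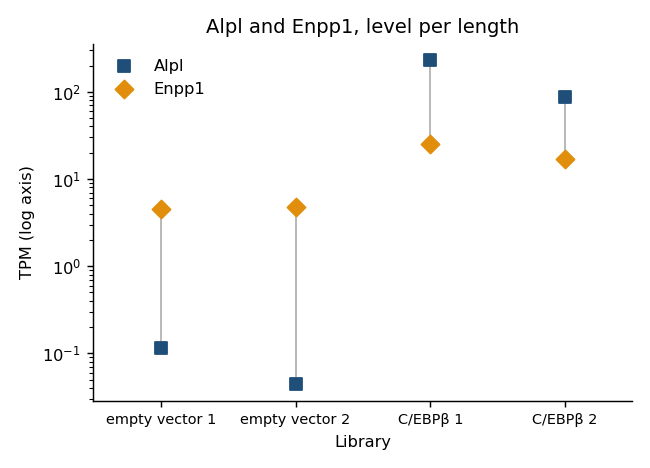
TPM on a log axis (y) of Alpl (squares) and Enpp1 (diamonds) in each library (x), a grey line joining the pair. Enpp1 is above Alpl in both empty vector libraries (4.48 and 4.79 against 0.114 and 0.0440 TPM) and below it in both C/EBPβ libraries (25.4 and 17.0 against 230 and 86.2 TPM).

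Phospho1 (ENSMUSG00000050860, chromosome 11, 95824499 to 95832140, plus strand), which frees phosphate from phosphocholine inside matrix vesicles, stood at 2.72 and 3.09 CPM with empty vector and at 2.70 and 2.46 CPM with C/EBPβ. The groups lay next to each other, and the log2 fold change was -0.18 (SE 0.19). Its empty vector replicate 1 and C/EBPβ replicate 1 differed by less than the replicates of either group.

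Around these enzymes, a list of 11 found genes for phosphate and pyrophosphate transport and matrix vesicles had 10 tested members. Of these 3 rose and none fell, with 7 not past the threshold (median log2 fold change 0.05). The background for this and every later list is 14.1% of all tested genes higher and 10.8% lower. Nt5e, the ectoenzyme that splits AMP to adenosine and phosphate, rose from 5.57 and 5.29 to 24.9 and 41.2 CPM (log2 fold change 2.61, SE 0.23, edgeR adjusted p = 0.000135). Smpd3, the neutral sphingomyelinase needed for skeletal mineralization, rose from 1.46 and 1.74 to 3.77 and 3.27 CPM (1.13, adjusted p = 0.00473 by edgeR). The phosphate exporter Xpr1 rose by 0.37 on the log2 scale (edgeR adjusted p = 0.0108), a call lost without C/EBPβ replicate 1 (adjusted p = 0.0867). The genes highest in TPM that did not pass were the annexins Anxa2 and Anxa6, with log2 fold changes of -0.16 and -0.29 (edgeR adjusted p = 0.330 and 0.0731). Anxa6 passed in DESeq2 (adjusted p = 0.0159) and in edgeR without the low-count filter (adjusted p = 0.0391). Ank, the pyrophosphate transporter named after its value was seen, stood at 585 and 540 CPM against 467 and 501 CPM, with a log2 fold change of -0.22 (edgeR adjusted p = 0.139).

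Paralogs of the enzymes moved both ways. Of 10 paralogs, 5 were tested, of which 2 rose and 2 fell, beside 14.1% and 10.8% of all tested genes. Enpp3, a neighbour of Enpp1 on chromosome 10 (24773814 to 24836195), rose from 10.4 and 13.9 to 36.8 and 33.2 CPM (log2 fold change 1.53, SE 0.14, edgeR adjusted p = 0.000202). Enpp2, which encodes the lysophospholipase autotaxin, rose by 0.73 (edgeR adjusted p = 0.0379). That call was lost without empty vector replicate 2 and without either C/EBPβ replicate (adjusted p = 0.146, 0.0725 and 0.0608 by edgeR), and DESeq2 gave an adjusted p of 0.101. Enpp4 and Enpp5, which lie side by side on chromosome 17, fell by 0.36 and 0.54 (edgeR adjusted p = 0.0334 and 0.0320). The Enpp4 call was lost without empty vector replicate 1, empty vector replicate 2 or C/EBPβ replicate 1 (edgeR adjusted p = 0.103, 0.0502 and 0.275). The Enpp5 call was lost without empty vector replicate 1 or C/EBPβ replicate 1 (edgeR adjusted p = 0.144 and 0.125). Phospho2 had a log2 fold change of 0.03 (edgeR adjusted p = 0.876). The other alkaline phosphatase genes, Alpi, Alppl2 and Akp3, had at most 2 counts in any library.

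Among the matrix proteins, Mgp (ENSMUSG00000030218, chromosome 6, 136872435 to 136875823, minus strand), which encodes the vitamin K-dependent calcification inhibitor matrix Gla protein, stood at 224 and 177 CPM with empty vector and at 101 and 125 CPM with C/EBPβ. The groups did not overlap, as was so for 66.2% of all tested genes, and the log2 fold change was -0.82 (SE 0.14). Mgp remained among the more abundant transcripts, at TPM places 217 and 290 with empty vector and 593 and 458 with C/EBPβ. The carboxylation machinery that activates Gla proteins was tested in all 3 genes, of which 2 rose. Ggcx, the gamma-glutamyl carboxylase, rose by 0.45 (edgeR adjusted p = 0.00869), lost without C/EBPβ replicate 1 (adjusted p = 0.0769). Vkorc1, which recycles vitamin K, rose by 0.69 (edgeR adjusted p = 0.0304), lost without empty vector replicate 2 (0.46, adjusted p = 0.113). Vkorc1l1 had -0.03 (edgeR adjusted p = 0.824).

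Spp1 (ENSMUSG00000029304, chromosome 5, 104435118 to 104441050, plus strand), which encodes osteopontin, an acidic phosphoprotein that binds mineral and integrins, stood at 2934 and 2857 CPM with empty vector and at 3619 and 4962 CPM with C/EBPβ. It was the 8th and 6th most abundant gene by TPM in the empty vector libraries and the 6th and 2nd in the C/EBPβ libraries. The C/EBPβ libraries were both above the empty vector ones, and here replicate 2 was the higher. The log2 fold change was 0.57 (SE 0.16). Leaving out C/EBPβ replicate 2 gave 0.32, and leaving out empty vector replicate 1 or 2 gave 0.58 or 0.55. In each of these 3 settings Spp1 was no longer past the threshold, and 3 members in place of 4 stood above it on the higher side. RefSeq lists a pair of Spp1 starts. The window of the upstream one is shown because it holds a RUNX match, in capitals, 128 to 123 bases before the start (chr5:104434861-104435110, plus strand, 5′ to 3′).
Spp1 upstream promoter: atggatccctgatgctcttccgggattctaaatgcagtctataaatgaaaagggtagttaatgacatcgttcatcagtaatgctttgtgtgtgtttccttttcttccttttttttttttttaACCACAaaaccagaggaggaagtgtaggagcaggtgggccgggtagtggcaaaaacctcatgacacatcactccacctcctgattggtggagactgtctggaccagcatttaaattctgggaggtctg

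Ibsp (ENSMUSG00000029306, chromosome 5, 104299171 to 104311469, plus strand), bone sialoprotein, had no count with empty vector and 2 and 1 counts with C/EBPβ, which is at the floor of 3 counts, so no fold is given. A count of 0 allows up to 0.0733 and 0.0799 CPM in the empty vector libraries. Ibsp and Spp1 belong to 1 cluster of genes for acidic bone and tooth proteins on chromosome 5, with Dspp (from 104170712), Dmp1 (from 104202613) and Mepe (from 104325329) in the same stretch. Dspp and Mepe had 0 counts in all 4 libraries. Dmp1, a phosphoprotein of osteocytes, fell from 4.59 and 3.67 to 1.26 and 1.82 CPM (log2 fold change -1.39, SE 0.23, edgeR adjusted p = 0.00322). Within the cluster, Spp1 thus stood at 5622 TPM or more in every library while none of the other 4 genes exceeded 5.25 TPM.

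Of 17 other mineral-binding and bone matrix genes, 9 were tested, of which 4 rose and 2 fell (median log2 fold change 0.87). The shares of all tested genes were 14.1% and 10.8%. Bgn, the proteoglycan biglycan, rose from 949 and 644 to 2291 and 1882 CPM (1.39, SE 0.19, edgeR adjusted p = 0.00108). Sparc, the collagen-binding glycoprotein osteonectin, rose from 2296 and 2025 to 5106 and 3914 CPM (1.06, SE 0.15, edgeR adjusted p = 0.00162). Ogn rose by 0.93 (edgeR adjusted p = 0.0173), with 0.58 when C/EBPβ replicate 1 was left out. The Ogn call was lost when empty vector replicate 2 was left out (0.68, edgeR adjusted p = 0.101), and DESeq2 gave an adjusted p of 0.101. Bglap3, an osteocalcin relative whose reads may be shared with close copies, rose from 0.535 and 0.608 to 1.02 and 1.23 CPM (edgeR adjusted p = 0.0300). The Bglap3 call was lost in DESeq2 (adjusted p = 0.187) and without empty vector replicate 1, empty vector replicate 2 or C/EBPβ replicate 2 (edgeR adjusted p = 0.138, 0.0856 and 0.188). Beside Dmp1, the endopeptidase gene Phex fell from 5.08 and 5.60 to 1.28 and 2.26 CPM (-1.53, SE 0.25, edgeR adjusted p = 0.00295). Fam20c, the kinase of secreted phosphoproteins, had -0.14 (edgeR adjusted p = 0.292), and Omd, osteomodulin, had 0.87 (edgeR adjusted p = 0.111). Omd depended on the library: it passed when empty vector replicate 1 (1.45, edgeR adjusted p = 0.0462) or C/EBPβ replicate 2 (1.26, adjusted p = 2.53e-09) was left out. It had 0.45 and 0.37 when empty vector replicate 2 or C/EBPβ replicate 1 was left out (edgeR adjusted p = 0.398 and 0.281). Without the low-count filter Omd passed (edgeR adjusted p = 1.96e-07), and in DESeq2 it did not (adjusted p = 0.401).

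Of 9 genes for receptors of osteopontin and bone sialoprotein, 7 were tested, of which 1 rose and 2 fell (median -0.11). Among all tested genes 14.1% were higher and 10.8% lower. Itga5 rose from 276 and 297 to 476 and 409 CPM (0.63, SE 0.10, edgeR adjusted p = 0.00308). Cd44, the hyaluronan receptor that also binds osteopontin, fell from 935 and 1048 to 476 and 590 CPM (-0.89, SE 0.13, edgeR adjusted p = 0.00141). Itga4 fell from 1.99 and 2.19 to 0.131 and 0.446 CPM (-2.64, edgeR adjusted p = 0.00174), with a log2 fold change of -3.96 when C/EBPβ replicate 2 was left out. The receptor genes highest in TPM without a call, the integrin chains Itgb1 and Itgb5, had log2 fold changes of -0.11 and 0.24 (edgeR adjusted p = 0.466 and 0.0791). Itgb5 passed when empty vector replicate 1 was left out (0.32, edgeR adjusted p = 0.0355).

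Runx2 (ENSMUSG00000039153, chromosome 17, 44495987 to 44814797, minus strand) stood at 64.1 and 56.6 CPM with empty vector and at 102 and 82.7 CPM with C/EBPβ. Both C/EBPβ libraries were above both empty vector libraries, and the log2 fold change was 0.61 (SE 0.12). The window before its RefSeq start is shown because it carries a C/EBP match, TTGCAAAA, 48 to 41 bases before the start. A RUNX match lies 80 to 75 bases before that start, and both are in capitals. The 2 further RUNX matches just after the start are not printed. In the annotation used for counting the gene reaches to 44814797. Part of the window, with both capitalised matches, thus lies inside the counted gene (chr17:44814628-44814877, minus strand, 5′ to 3′).
Runx2 promoter: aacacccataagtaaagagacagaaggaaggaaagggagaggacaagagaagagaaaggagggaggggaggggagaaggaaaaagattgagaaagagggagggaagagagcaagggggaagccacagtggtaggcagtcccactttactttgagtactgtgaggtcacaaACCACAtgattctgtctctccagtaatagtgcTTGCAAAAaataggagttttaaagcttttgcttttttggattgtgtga

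Sp7 (ENSMUSG00000060284, chromosome 15, 102356609 to 102366325, minus strand), osterix, which acts downstream of Runx2, had 16 and 14 counts with empty vector and 32 and 26 counts with C/EBPβ. In CPM these are 0.389 and 0.370 against 0.839 and 0.283. The groups overlapped, since C/EBPβ replicate 1 was above and replicate 2 below both empty vector libraries. The log2 fold change of 0.38 (SE 0.54) turned to -0.42 without C/EBPβ replicate 1.

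Dlx3 (ENSMUSG00000001510, chromosome 11, 95120119 to 95125296, plus strand), a homeodomain factor of skeletal and skin development, stood at 60.6 and 67.2 CPM with empty vector and at 31.2 and 35.2 CPM with C/EBPβ. Every C/EBPβ value was below every empty vector value, and the log2 fold change was -0.94 (SE 0.10). Dlx5 (ENSMUSG00000029755, chromosome 6, 6877805 to 6882085, minus strand), a BMP-responsive factor of osteoblasts, had 0 counts in all 4 libraries, which allows up to 0.0733, 0.0799, 0.0776 and 0.0326 CPM in turn. Its neighbour Dlx6 had 1 count in all. Dlx4, the neighbour of Dlx3, had a log2 fold change of 0.72 from a low level (edgeR adjusted p = 0.121). Dlx1 and Dlx2, which are neighbours on chromosome 2, both rose. Dlx1 went from 7.10 and 5.71 to 17.5 and 12.02 CPM (1.19, SE 0.20, edgeR adjusted p = 0.00319). Dlx2 went from 10.2 and 5.58 to 26.4 and 15.8 CPM (1.403, edgeR adjusted p = 0.0104), a call lost in DESeq2 (adjusted p = 0.0581) and when empty vector replicate 2 was left out (edgeR adjusted p = 0.0597). The Dlx genes thus included both higher and lower levels with C/EBPβ.

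Of 21 further skeletal transcription factors and Runx2 partners, 18 were tested, of which 2 rose, namely Dlx1 and Dlx2, and 5 fell (median 0.13). Across all tested genes 14.1% rose and 10.8% fell. Sox9, the chondrocyte factor, fell from 102 and 104 to 44.8 and 55.5 CPM (-1.04, SE 0.11, edgeR adjusted p = 0.000329). Msx2, a homeodomain factor of skull and limb, fell by 0.88 (edgeR adjusted p = 0.0195), lost in DESeq2 (adjusted p = 0.0519) and without empty vector replicate 1 or C/EBPβ replicate 1 (edgeR adjusted p = 0.101 and 0.0629). Cbfb, the partner subunit that Runx2 needs to bind DNA stably, fell from 158 and 154 to 117 and 129 CPM (-0.34, edgeR adjusted p = 0.0209), and Runx3 fell by 0.30 (edgeR adjusted p = 0.0290). Without empty vector replicate 1 or C/EBPβ replicate 1 the Cbfb call was lost (edgeR adjusted p = 0.0506 and 0.253). The Runx3 call was lost without either of these or C/EBPβ replicate 2 (edgeR adjusted p = 0.0519, 0.312 and 0.0868). Hey1, a Notch and BMP target, fell by 0.66 (edgeR adjusted p = 0.0215), lost without empty vector replicate 2 (-0.41, adjusted p = 0.0866). Atf4 and Wwtr1, the highest in TPM without a call, had 0.03 and -0.20 (edgeR adjusted p = 0.826 and 0.1002).

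BMP receptors, Smads and Id genes are the route by which BMP ligands act on Runx2, Dlx genes and Alpl in osteoblasts. Of 15 tested genes 9 rose and none fell (median 0.86). Among all tested genes 14.1% were higher and 10.8% lower, with a median of 0.00055. The list was written with earlier results of these data known, so nothing is read from its count. Bmpr1b, a type I receptor, rose from 3.38 and 3.25 to 9.49 and 10.0 CPM (1.56, SE 0.14, edgeR adjusted p = 0.000172). Smad1, a signal transducer, rose from 57.5 and 49.7 to 100.4 and 94.6 CPM (0.86, SE 0.10, edgeR adjusted p = 0.000415). The inhibitory Smad6 and Smad7 rose by 2.10 and 1.16, and the Id genes Id1, Id3 and Id4 by 0.85, 0.97 and 2.21 (largest edgeR adjusted p = 0.0107, that of Id3, lost in DESeq2 with adjusted p = 0.0554). Smad9 rose by 1.61, with 2.35 when empty vector replicate 1 was left out. Leaving out empty vector replicate 2 ended the Smad9 call (edgeR adjusted p = 0.0622), and DESeq2 gave an adjusted p of 0.0831. The ninth, Acvrl1, had 6 and 1 counts against 64 and 141 counts. Id2 and Smad4, the highest in TPM without a call, had 0.19 and -0.12 (edgeR adjusted p = 0.280 and 0.309). Id2 passed when empty vector replicate 1 was left out (0.38, edgeR adjusted p = 0.0199) and had 0.02 when empty vector replicate 2 was left out. Bmpr1b and Smad1 are named because their adjusted p were the smallest of the list in these same data. The other rises were named after their values were seen.

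**Figure D3:**
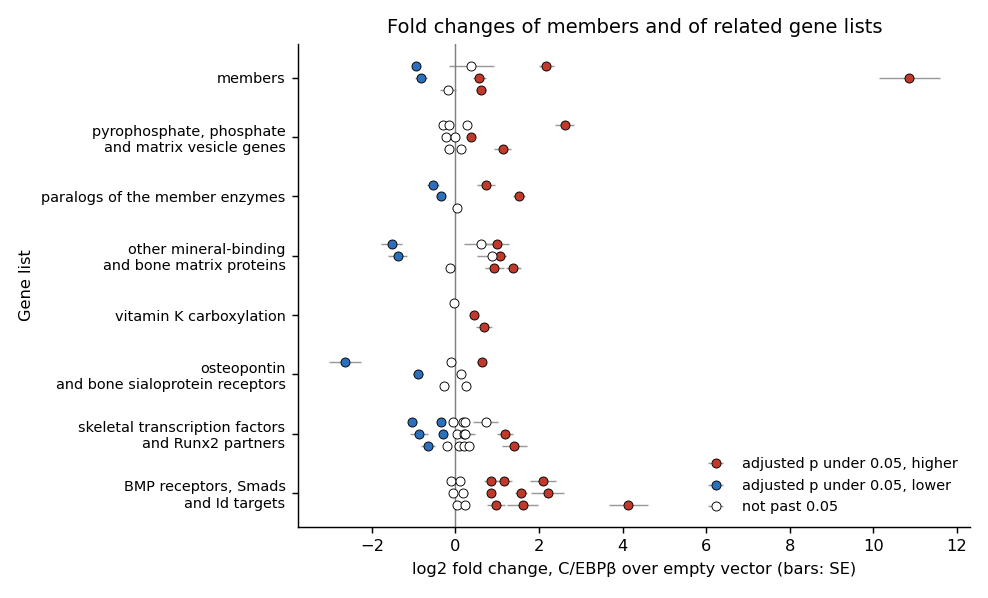
Log2 fold change of C/EBPβ over empty vector (x, bars are SE) for the tested members and for tested genes of each related list (rows); red and blue points passed an adjusted p of 0.05, white points did not. Among the genes shown Alpl stands alone at 10.87, and in the BMP row 9 points are red and none is blue. Of all tested genes 14.1% were higher and 10.8% lower.

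The C/EBPβ replicates were unequal for some of these genes. Alpl was 2.69-fold and Sp7 2.96-fold higher in replicate 1 than in replicate 2. On the log2 scale with a prior count of 2, 99.5% and 99.6% of tested genes had a smaller gap between the C/EBPβ replicates. Enpp1 was 1.51-fold higher in replicate 1, and 93.7% of genes had a smaller gap. Spp1 was 1.37-fold higher in replicate 2, with 89.6% below its gap. Mgp, Runx2, Dlx3 and Phospho1 had gaps larger than those of 81.9%, 81.8%, 66.5% and 57.7% of genes. Of the 6 members past the threshold, 5 lay farther from the empty vector mean in replicate 1, all but Spp1. The same was so for 83.6% of the 3759 genes past the threshold, and for 8 of the 9 BMP-list risers. Cebpb itself was at 483 CPM in replicate 1 and 473 CPM in replicate 2, and the totals were 38656497 and 92027838 counts. Whether depth or any property of the cultures moved these values was not tested.

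**Figure D4:**
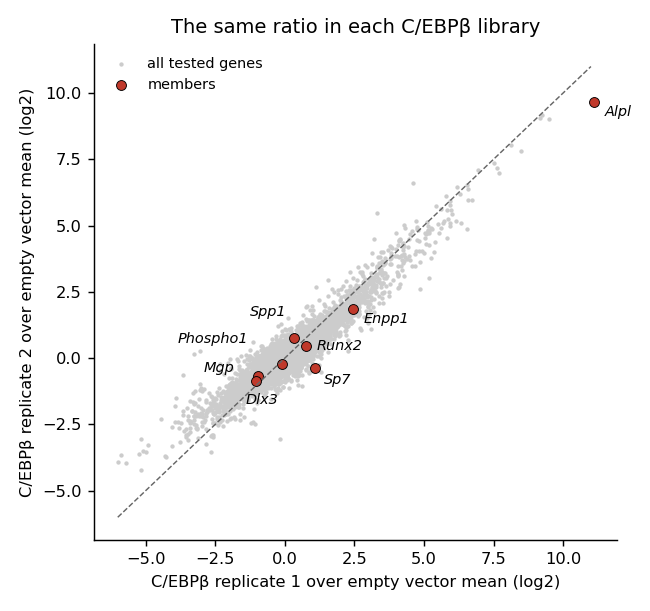
Log2 ratio to the mean of the empty vector libraries in C/EBPβ replicate 1 (x) and replicate 2 (y), log2 CPM with a prior count of 2; grey points are all 15078 tested genes, red points the 8 tested members, and the dashed line marks equality. Alpl lies at 11.10 and 9.67, Sp7 at 1.07 and -0.38, and Spp1 at 0.32 and 0.78, the last being the sole member past the threshold that lies farther from 0 in replicate 2.

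Over the 4 libraries the genes with the pattern nearest to that of Alpl, by Euclidean distance of centred log2 CPM, were Cxcl14 (distance 1.49), Lama1 (1.75), Stc1 (1.89), Orm1 (2.34) and Angptl7 (2.96). For Enpp1 they were Car9, Rassf6 and Slc6a2 (0.08 to 0.16), and for Runx2 Rnasek, Efemp2 and Fcgrt (0.02 to 0.05). For Mgp they were Rubcnl, Myl6b and Msx2 (0.05 to 0.11), and for Dlx3 Neurl1a, Lrrc14b and Tubb3 (0.04 to 0.06). For Spp1 they were Atp2a3, Magea8 and Cp (each 0.13 after rounding). For Phospho1 they were Dbn1, Cep170b and Urb2 (0.02 to 0.04), and for Sp7 Jazf1, Celsr3 and Ecel1 (0.16 to 0.36). With 4 points in 2 groups these are descriptions. Of the 12609 genes searched, none came as near to Alpl as the nearest genes did to the other 7 members. The distance was not scaled to the size of a change, so a gene with so large a change has few near it, and nothing is read from this.

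Markers of other cell types were read beside these values, with 14.1% of all tested genes higher and 10.8% lower as background. Of 8 osteoblast and osteocyte markers 4 were tested, of which 2 rose and 2 fell. Col1a1 and Col1a2, the chains of collagen I, rose by 2.76 and 1.32 (edgeR adjusted p = 0.000142 and 0.000530), and Dmp1 and Phex fell as given above. Bglap, osteocalcin, had at most 4 counts in any library and Bglap2 at most 16. Both may read low if their reads also match close copies, since no option to count multi-mapping reads was set. Sost had 1 count in all and Mepe 0, whereas Dmp1 and Phex were detected in every library, with at least 48 and 49 counts. The summed level of the 8 was 1376 and 1394 CPM with empty vector and 4538 and 3200 CPM with C/EBPβ. Most of this sum was Col1a2, at 1256 and 1294 CPM against 3672 and 2701 CPM, so it mainly describes collagen I. Of 10 chondrocyte markers 5 were tested. Col10a1 rose from 0.219 and 0.159 to 3.01 and 1.22 CPM and Sox9 fell. Col2a1, Comp and Matn3 did not pass (log2 fold change 0.29, 0.27 and 0.03, edgeR adjusted p = 0.814, 0.665 and 0.943). Acan, Matn1, Hapln1 and Col9a1 had at most 2 counts in any library. The summed level of the 10, most of it Sox9, was 105 and 106 CPM against 50.5 and 58.9 CPM.

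Of 5 smooth muscle markers 4 were tested, of which 3 rose. Smtn did not pass, at 120 and 129 CPM with empty vector against 151 and 128 CPM with C/EBPβ (0.16, edgeR adjusted p = 0.277). Lmod1 rose by 4.72, Cnn1 by 4.71 and Acta2 by 1.34 on the log2 scale (edgeR adjusted p = 2.58e-05, 8.39e-05 and 0.00289). The summed level of the 5, most of it Acta2, went from 1449 and 1015 to 3529 and 2504 CPM. Myh11, the defining smooth muscle myosin, had 1 and 1 counts against 13 and 14 counts. Of 9 macrophage and leukocyte markers 4 were tested. Lyz2, Csf1r and Cd14 rose, and Cd68 did not pass (log2 fold change 0.33, edgeR adjusted p = 0.138). The summed levels of the 9 were 21.3 and 19.3 CPM with empty vector against 37.2 and 38.8 CPM with C/EBPβ. Tyrobp and Adgre1 had 0 counts and Ptprc at most 2. Of 5 osteoclast markers 1 was tested and did not pass, and their sum stayed under 1 CPM in every library. The part of smooth muscle, macrophage or other cells in the levels of Alpl, Mgp and Spp1 was not tested.

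The authors' deposited table of their own comparison lists 8 of the 10 genes. Its log2 fold changes are 9.05 for Alpl, 2.09 for Enpp1, 0.51 for Spp1 and 0.57 for Runx2. The authors' deposited table further gives 0.38 for Sp7, -0.21 for Phospho1, -0.85 for Mgp and -0.98 for Dlx3. The signs in the authors' deposited table are those found here for all 8, and the value for Alpl is 9.05 against 10.87. Ibsp and Dlx5 are not listed in it.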

How the data were processed

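The deposited files give gene-level fragment counts. The file headers record featureCounts 1.5.1 with paired, reverse-stranded settings and GENCODE M12. HISAT2 2.0.4, GRCm38 and featureCounts 1.4.6 are named in the submitters' processing notes; the difference in featureCounts version was not settled. The header commands set no option to count multi-mapping reads, so genes with close copies may read low. The authors' deposited table, with DESeq2 column names, holds log2 fold changes with standard errors and test statistics (a score), p-values with adjusted p-values, and each gene's base mean (a signal). It was described and not retested.

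Counts were filtered with filterByExpr (minimum count 10, total 15) and compared with edgeR 4.0.16 in R 4.3.3, TMM scaling, the quasi-likelihood test and Benjamini-Hochberg adjustment, with calls at 0.05. CPM used the TMM-scaled totals of the tested genes, and TPM the exon lengths in the count files. SE is the absolute log2 fold change divided by the square root of the quasi-likelihood F statistic, and was not estimated separately. One count equals 0.0109 to 0.0266 CPM. Limits for a count of 0 are 3 counts of the library total. Symbols from the reference matched 49326 of 49585 identifiers. Scripts were tested on simulated data. Members and lists were chosen with earlier results of these data known. Text names all members, and from each list the 2 genes with the smallest adjusted p in each direction and the 2 highest in mean TPM without a call. It names Cebpb, and the 5 genes nearest in pattern to Alpl and 3 nearest to each other tested member, leaving out predicted genes and pseudogenes. Others are named because their values were seen or because a library or tool ends their call. Alternatives were DESeq2 1.42.0, library totals as scale, no filter, a replicate block and each library left out. Replicates differed by more than sampling noise.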

Additional observations from a re-analysis of the deposited data

How the results depend on the processing

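Beside each count, the value in the edgeR test on all 4 libraries stands in parentheses. DESeq2 called 1 phosphate-list gene lower (0), 1 paralog higher (2), 2 bone matrix genes higher (4) and 1 skeletal factor higher (2). It also called 4 skeletal factors lower (5) and 7 BMP-list genes higher (9). Without the low-count filter 1 phosphate-list gene was called lower (0) and 3 receptors higher (1). The labels give both groups replicates 1 and 2 but do not say that a number marks a shared batch. Same-numbered deviations correlated at 0.15 over the tested genes, which with 2 pairs does not show pairing. With the replicate number as a block, 2573 genes were called higher (2129) and 1963 lower (1630). Under this block 4 members were higher and 2 lower, as without it, and 1 phosphate-list gene was called lower (0). Omd (adjusted p = 8.06e-06) and Anxa6 (adjusted p = 0.0448) passed in edgeR under the block.

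With each library left out in turn, where a lone library is assumed to vary like the other group, all-gene calls ran from 1527 to 2076 higher and 966 to 1386 lower (the 966 without C/EBPβ replicate 1). Members called ran from 3 to 4 higher and stayed at 2 lower. Called paralogs ran from 1 to 2 higher and 0 to 2 lower, bone matrix genes from 2 to 4 higher and carboxylation genes from 1 to 2 higher. Receptors ran from 1 to 3 higher, and skeletal factors from 1 to 2 higher and 2 to 4 lower. The sign turned for 6 genes, none past the threshold in any of these fits. Over the left-out libraries Sp7 ran from -0.42 (without C/EBPβ replicate 1) to 1.14, Anxa5 from -0.079 to 0.039 (above 0 without empty vector replicate 1 or C/EBPβ replicate 1), Phospho2 from -0.027 (without C/EBPβ replicate 2) to 0.075, Vkorc1l1 from -0.068 to 0.00085 (without empty vector replicate 1), Atf4 from -0.011 (without C/EBPβ replicate 2) to 0.075, and Smad5 from -0.16 to 0.044 (above 0 without empty vector replicate 2 or C/EBPβ replicate 2). The cause of these moves was not tested. With 2 libraries a group, replicate spread is known poorly, and for Alpl, Ibsp, Dlx5 and Sp7 the few counts limit precision. Matches to the 3 motifs were in as many member windows with the bases after the start left out.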
